A study of Mus musculus with 92 samples.

Results

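Monocytes taken from the bone marrow of mice were compared with progenitors from the same tissue. The comparison uses the 6 libraries whose titles name monocytes or progenitors isolated from FVB WT BM, 3 of each, out of 92 libraries in the series, which bears on the replacement of microglia by macrophages made from ER-Hoxb8 progenitors. All 6 come from wild-type (WT) FVB mice without treatment, and their age is not given in the sources used here. Marrow was flushed from femurs and tibias and its red cells were lysed. Progenitors were then enriched by magnetic depletion of cells that carry lineage markers, and monocytes by a magnetic monocyte isolation kit, so both groups are enriched fractions and not cells sorted one by one. They are described as biological replicates, and nothing says that the replicate numbers of the groups mark the same mice. For the last comparison, ER-Hoxb8 cells are used: progenitors from FVB Cas9 mice, unlike the WT marrow, that are conditionally immortalized by an estrogen-dependent Hoxb8 fusion protein, 3 libraries at day 0 and 3 at day 4 of differentiation in M-CSF.

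Monocytes form in the marrow from stem cells by way of multipotent, granulocyte-monocyte and monocyte progenitors. On this path the growth factor receptors Kit and Flt3 give way to Csf1r, the receptor of M-CSF, and the factors PU.1 (gene Spi1) and Irf8 set the monocyte program, while Gata1 directs the erythroid and megakaryocyte branch. Classical monocytes, which carry Ly6C and Ccr2, leave the marrow and enter inflamed tissue, while patrolling monocytes, which carry little Ly6C and much Cx3cr1, survey the vessel wall. A lineage-negative fraction holds early progenitors of several blood lineages beside those of monocytes.

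Messenger RNA was measured as log2 CPM, the log2 of a gene's reads per 1 M reads, scaled between libraries by the authors. Depth, estimated from the steps between the values of a library, was 34.9, 39.9 and 34.4 M (mega) counts in progenitors 1, 2 and 3 and 41.2, 43.3 and 43.1 M in monocytes 1, 2 and 3, and values below are always in this order. The numbers of genes above a CPM of 1 were 11224, 11621 and 11571 and 11427, 11168 and 11054. Values stand for the RNA of a whole fraction, so fewer cells of a type and less RNA per cell cannot be told apart. Libraries of the same group correlated more closely than libraries of different groups across genes: Pearson's r ran from 0.934 to 0.974 among progenitors, 0.920 to 0.942 among monocytes and 0.789 to 0.855 between the groups, where genes are not independent replicates.

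Some libraries stood apart within their group. The 4 Y-linked genes measured (Ddx3y, Eif2s3y, Kdm5d and Uty) averaged 5.49, -0.99 and -0.85 log2 CPM in progenitors and 5.76, -1.46 and 5.18 in monocytes. Progenitors 1 and monocytes 1 and 3 were thus high and the other libraries low, as libraries from male and female donors would be, and the sources used here do not give the sex. Over the 20 neutrophil genes in the table the summed CPM was 507, 11502 and 5173 in progenitors and 2363, 12714 and 6645 in monocytes, with the lowest sum in replicate 1 of both groups. Over the 16 megakaryocyte and platelet genes it was 398, 885 and 1155 in progenitors and 3937, 2097 and 217 in monocytes, so monocytes 1 and 2 lay above all progenitors and monocytes 3 below them. The part of such other cells in the differences between groups was not tested. Of the immediate early genes, which cells switch on within minutes of a stimulus, Fos was 3.12, 7.01 and 6.63 log2 CPM in progenitors and 5.63, 10.54 and 10.15 in monocytes, and Jun was -0.26, 3.17 and 2.65 in progenitors and -0.36, 4.66 and 4.65 in monocytes. For Fos and Jun, replicate 1 was the lowest of its group in both groups. The plasma cell gene Igj, the joining chain of antibodies, was highest in monocytes 1, at 8.68, 6.89 and 7.93 log2 CPM in progenitors and 10.21, 6.92 and 6.45 in monocytes. Without replicate 1 of both groups, an alternative chosen after seeing the data, 824 genes passed the test in place of the 1184 described next.

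**Figure D1:**
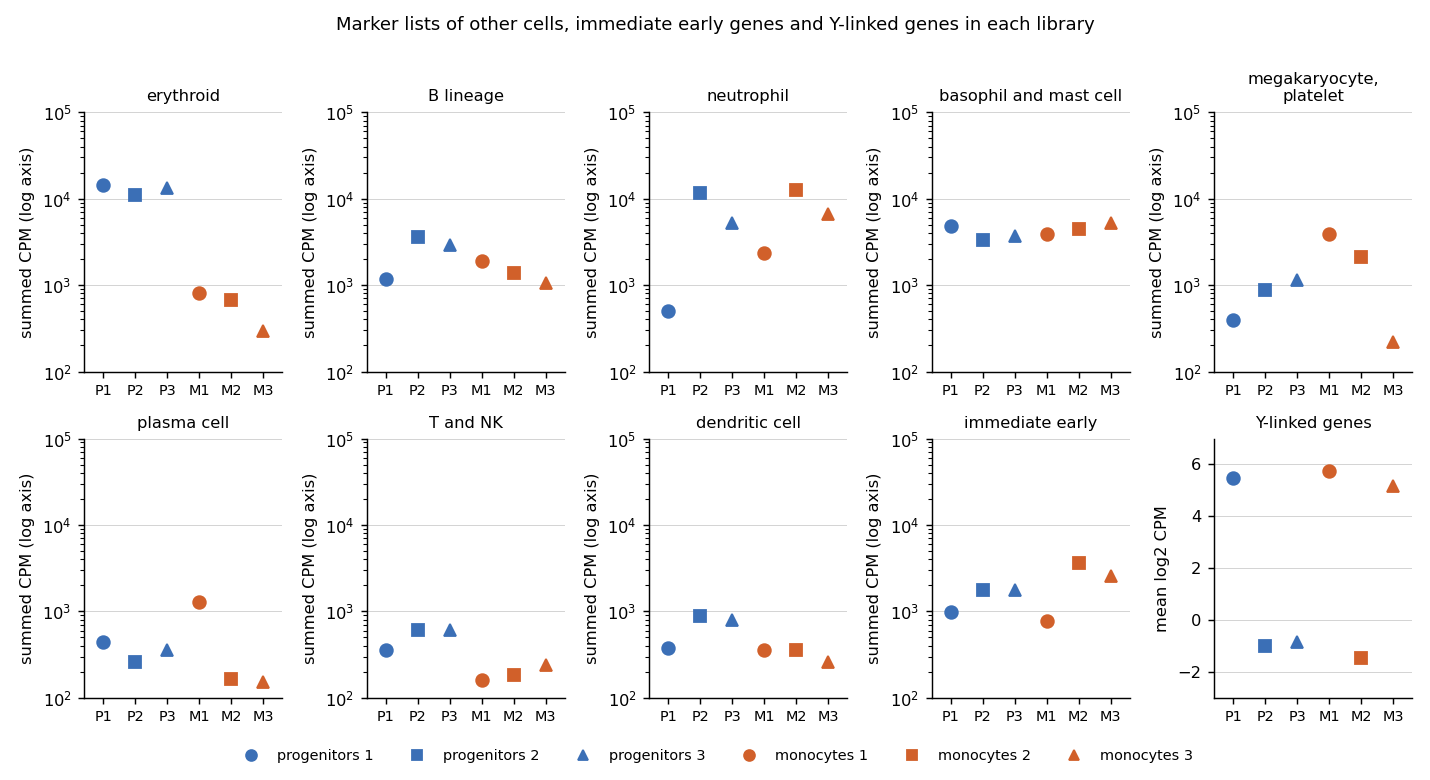
Summed CPM on a log axis over marker lists of other cells and over immediate early genes, and the mean log2 CPM of the Y-linked genes, in each progenitor (P1 to P3) and monocyte (M1 to M3) library. The erythroid, T and NK, and dendritic cell sums separate the groups, while the neutrophil, megakaryocyte and Y-linked values vary within them.

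The comparison asks how the RNA of the monocyte fraction differs from that of the progenitor fraction in the same tissue. Of 11615 genes tested with limma, 1184 (10.2%) are called DEGs, differentially expressed genes. These have an adjusted p below 0.05 and a log2FC (log2 fold change, monocytes minus progenitors) of 2 or more either way. Of these, 570 were higher in monocytes (4.91% of genes tested) and 614 lower (5.29%). Without the fold limit, 1894 genes were higher (16.3%) and 2051 lower (17.7%). The median log2FC over all genes tested was -0.09. The 3 values of a group lay above all 3 of the other in 2666 genes for monocytes (23.0%) and in 3156 for progenitors (27.2%), and 9 of the DEGs were exceptions to such a separation. With 3 libraries against 3 an exact permutation test cannot give a p below 0.1, so single genes are judged by the fit across all genes. A gene was tested when its CPM was above 1 in at least 3 of the 6 libraries. Of the genes tested, 105 had no progenitor library above this limit and 222 no monocyte library, and those genes had to differ between the groups to be tested at all. Besides those marked below, they include 1 T and NK, 1 pattern recognition, 2 interferon-stimulated and 1 chemokine receptor or adhesion gene. Below, "higher" and "lower" with a count always mean DEGs, and "12-library fit" means that the spread was taken from all 12 libraries normalized together, ER-Hoxb8 cells included. Counts for monocytes against progenitors stand beside 4.91% higher and 5.29% lower over all genes tested. Without the fold limit these shares are 16.3% and 17.7%.

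**Figure D2:**
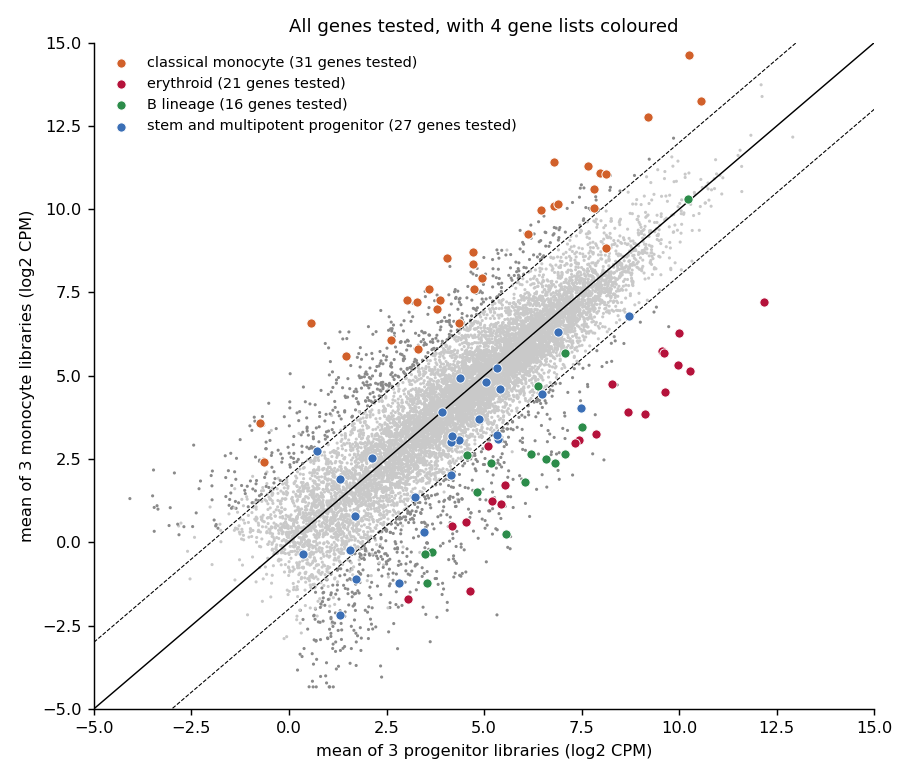
Mean log2 CPM of the 3 monocyte libraries against that of the 3 progenitor libraries for each of the 11615 genes tested, with DEGs in dark grey and others in light grey. The solid line marks equal values and the dashed lines a log2FC of 2; the classical monocyte genes lie above and the erythroid genes below them, apart from Plac8.

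Most classical monocyte genes were higher in the monocyte fraction. Of the list, 29 of 31 tested were higher and 0 lower in monocytes (0 lower at an unadjusted p below 0.05 in limma), with a median log2FC of 3.41 against -0.09 over all genes. Csf1r was 6.00, 6.06 and 6.34 log2 CPM in progenitors and 9.62, 9.30 and 8.85 in monocytes. Ccr2, the chemokine receptor by which monocytes leave the marrow, was 6.55, 7.02 and 6.79 log2 CPM in progenitors and 10.54, 9.97 and 9.83 in monocytes. Ly6c2, which encodes the Ly6C surface protein, was 6.70, 8.24 and 8.50 log2 CPM in progenitors and 10.27, 10.49 and 11.04 in monocytes. Each of these genes was higher in every monocyte library than in any progenitor library, and progenitors 1 was the lowest for Ly6c2. The differences were 3.12 for Csf1r (SE 0.23, adjusted p = 8.18e-05), 3.32 for Ccr2 (SE 0.23, adjusted p = 6.78e-05) and 2.79 for Ly6c2 (SE 0.45, adjusted p = 0.0024). Cx3cr1, the fractalkine receptor, was 5.47, 4.38 and 5.02 log2 CPM in progenitors and 8.59, 7.92 and 7.31 in monocytes (log2FC 2.98, SE 0.37, adjusted p = 7.31e-04). Emr1, a surface receptor of macrophages, was 3.45, 3.97 and 3.93 log2 CPM in progenitors and 7.25, 7.15 and 6.62 in monocytes (log2FC 3.23, SE 0.24, adjusted p = 9.27e-05). For both, monocytes 3 was the lowest monocyte library and still above all progenitors. The summed CPM of the 31 genes was 3812, 7582 and 6609 in progenitors and 59801, 61363 and 65626 in monocytes. In monocytes the largest share of this sum came from Lyz2, the lysozyme of myeloid cells, at 9.34, 10.96 and 10.45 log2 CPM in progenitors and 14.49, 14.66 and 14.74 in monocytes (log2FC 4.38, SE 0.39, adjusted p = 1.66e-04).

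Genes of clotting and matrix belong to this list as well. F13a1, a subunit of clotting factor XIII, was 9.22, 9.26 and 9.08 log2 CPM in progenitors and 13.04, 12.77 and 12.52 in monocytes (log2FC 3.59, SE 0.21, adjusted p = 5.03e-05). Fn1, which encodes fibronectin, was 6.22, 7.17 and 6.99 log2 CPM in progenitors and 11.42, 11.38 and 11.44 in monocytes (log2FC 4.62, SE 0.25, adjusted p = 4.47e-05), with the monocyte libraries close together. Vcan, the matrix proteoglycan versican, had the largest positive log2FC of all DEGs whose groups did not overlap. It was 0.52, 0.61 and 0.56 log2 CPM in progenitors and 6.63, 5.94 and 7.14 in monocytes (log2FC 6.01, SE 0.33, adjusted p = 4.47e-05). The progenitor libraries were close to each other, and a gap of several log2 units lay between the groups. Chil3, a secreted chitinase-like protein, was 4.94, 9.66 and 9.34 log2 CPM in progenitors and 9.87, 11.10 and 12.32 in monocytes, a difference of 3.12 that did not pass (adjusted p = 0.072). The groups did not overlap, but progenitors 1 lay far below the other progenitors, and it passed in 4 of 17 alternatives. Plac8 was 7.27, 8.35 and 8.74 log2 CPM in progenitors and 8.24, 8.89 and 9.34 in monocytes and did not pass either (log2FC 0.70, adjusted p = 0.214); its groups overlapped. Cd14, the co-receptor for bacterial lipopolysaccharide, was 3.74, 5.08 and 4.24 log2 CPM in progenitors and 5.31, 7.45 and 6.95 in monocytes (log2FC 2.22, SE 0.55, adjusted p = 0.0156), and its call was lost at 1.91 (adjusted p = 0.0552 without progenitor library 1) and 1.78 (adjusted p = 0.05 without monocyte library 2). Of 29 calls on this list, 17 were lost in the 12-library fit (Csf1r at adjusted p = 0.125, Ccr2 at adjusted p = 0.283, Cx3cr1 at adjusted p = 0.251 and Lyz2 at adjusted p = 0.0776) and 3 with no filter. Of the 31 genes, 1 was above the limit in monocytes alone.

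**Figure D3:**
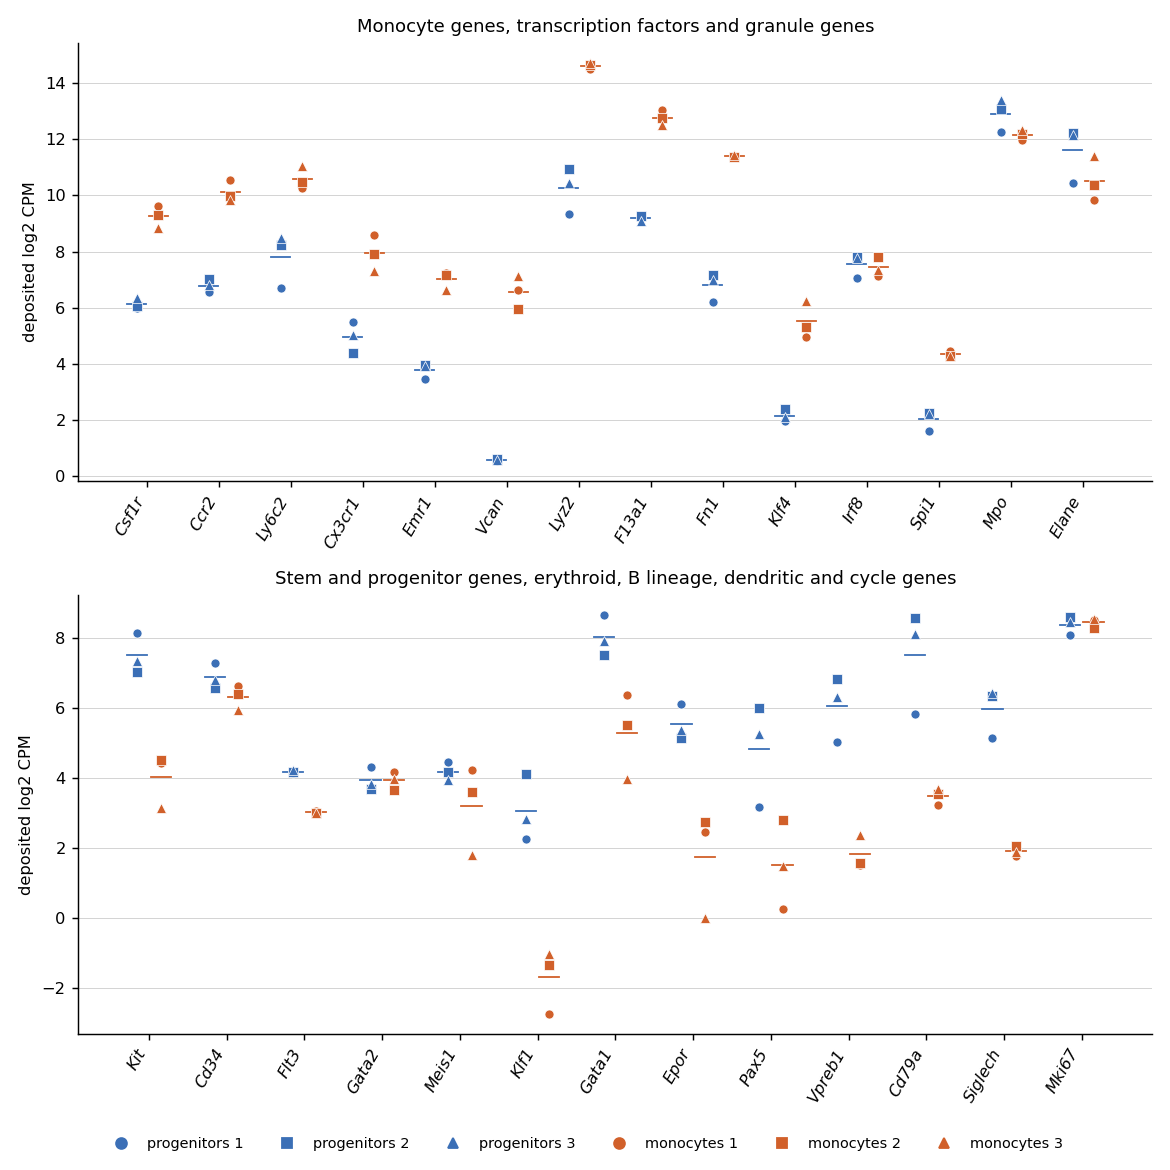
Deposited log2 CPM of genes of several lists in each library (points; horizontal bars are group means), progenitors in blue and monocytes in orange. Csf1r runs from 6.00 to 6.34 in progenitors and from 8.85 to 9.62 in monocytes, while Irf8 and Mki67 overlap.

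PU.1, a factor of the ETS family, binds purine-rich sequence in promoters of monocyte genes. RefSeq promoters of build GRCm38.p6, 300 bases around each gene start, were searched on both strands for its core, GAGGAA. Of 32851 promoters, 9289 (28.3%) held it, and of the 24 classical monocyte genes with a promoter in the table, 10 did (41.7%). The share of all promoters counts every listed one, while list shares, here and below, count only the first listed promoter of each gene. Shares of other lists ran from 14.3% (dendritic cell, MHC class II and stroma) to 70% (primary granule), so lists without a general rise lay on both sides. A match is a description of the letters and not a binding site. The 3 genes of this list with the largest log2FC among those with a match are shown, 5′ to 3′, with the match or its reverse complement in capitals. They are Ms4a4c, a membrane protein of the Ms4a family (chr19:11407411-11407710 on the + strand), S100a4, a calcium-binding protein (chr3:90603520-90603819 on the + strand), and Clec4a1, a C-type lectin receptor (chr6:122921598-122921897 on the + strand). Ms4a4c was 3.71, 4.27 and 4.13 log2 CPM in progenitors and 8.46, 8.50 and 8.67 in monocytes, S100a4 was 0.88, 1.48 and 2.03 in progenitors and 5.48, 5.19 and 6.09 in monocytes, and Clec4a1 was 3.11, 3.73 and 3.95 in progenitors and 7.66, 7.67 and 7.52 in monocytes. All 3 separated the groups, with log2FC of 4.51, 4.13 and 4.02 and adjusted p of 4.47e-05, 1.66e-04 and 5.66e-05. They are shown because genes of this list moved together.
Ms4a4c: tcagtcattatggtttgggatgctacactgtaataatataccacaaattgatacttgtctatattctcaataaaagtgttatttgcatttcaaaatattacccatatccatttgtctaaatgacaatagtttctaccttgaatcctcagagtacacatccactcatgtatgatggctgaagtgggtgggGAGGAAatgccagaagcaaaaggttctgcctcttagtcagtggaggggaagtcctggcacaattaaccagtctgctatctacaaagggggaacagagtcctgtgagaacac
S100a4: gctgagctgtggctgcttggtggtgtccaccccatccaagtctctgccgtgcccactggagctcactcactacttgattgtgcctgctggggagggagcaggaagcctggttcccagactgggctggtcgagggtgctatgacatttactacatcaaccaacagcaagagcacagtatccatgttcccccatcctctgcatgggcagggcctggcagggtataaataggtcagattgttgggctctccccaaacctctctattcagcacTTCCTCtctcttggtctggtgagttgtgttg
Clec4a1: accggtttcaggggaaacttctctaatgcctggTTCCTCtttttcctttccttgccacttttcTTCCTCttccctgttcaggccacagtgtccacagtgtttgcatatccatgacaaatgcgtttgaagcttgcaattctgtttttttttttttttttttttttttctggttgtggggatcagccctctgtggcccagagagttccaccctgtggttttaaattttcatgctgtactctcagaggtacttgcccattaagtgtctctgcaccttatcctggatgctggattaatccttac

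The sequences of Ms4a4c and S100a4 hold 1 match each and that of Clec4a1 holds 2. Ms4a4c has paralogs of like sequence on the same list: Ms4a6b, Ms4a6c and Ms4a6d were higher in monocytes too, with log2FC of 3.41, 3.51 and 4.24. How reads were divided between paralogs was not tested.

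Some genes of patrolling monocytes were higher in the monocyte fraction. Of the list, 5 of 18 tested were higher and 0 lower in monocytes (1 lower at an unadjusted p below 0.05 in limma), with a median log2FC of 1.30 against -0.09 over all genes; 3 were DEGs without progenitor library 1. Ear2, a ribonuclease of the eosinophil-associated family, was 2.43, 2.61 and 3.00 log2 CPM in progenitors and 6.31, 6.38 and 6.88 in monocytes (log2FC 3.85, SE 0.25, adjusted p = 6.00e-05). Lst1 was 1.62, 2.91 and 3.40 log2 CPM in progenitors and 6.19, 6.42 and 6.64 in monocytes (log2FC 3.77, SE 0.42, adjusted p = 4.33e-04), and Apoc2, an apolipoprotein, was 2.44, 2.58 and 2.49 in progenitors and 4.58, 6.18 and 5.96 in monocytes (log2FC 3.07, SE 0.40, adjusted p = 9.32e-04). All 3 genes separated the groups. Nr4a1, a nuclear receptor on which patrolling monocytes depend, was 4.27, 3.70 and 3.87 log2 CPM in progenitors and 6.00, 6.20 and 4.98 in monocytes; its log2FC of 1.78 (adjusted p = 0.0048) was under the fold limit. Itgal, the alpha chain of the integrin LFA-1, was 6.50, 6.80 and 6.92 log2 CPM in progenitors and 8.61, 8.48 and 7.77 in monocytes, also under the limit at 1.55 (adjusted p = 0.0024). Spn, which encodes CD43, was 6.26, 6.13 and 6.34 log2 CPM in progenitors and 7.06, 6.30 and 6.79 in monocytes, with overlapping groups and a log2FC of 0.48 (adjusted p = 0.128). Of 5 calls on this list, 2 were lost in the 12-library fit (Ear2 at adjusted p = 0.0706). The summed CPM of the 19 genes was 388, 723 and 659.6 in progenitors and 1409, 1573 and 1138 in monocytes.

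Among 41 transcription factors of myeloid cells, 11 of 39 tested were higher and 9 lower in monocytes. The median log2FC was 1.21 against -0.09 over all genes, and it was 0.70 with no filter, 0.58 with a mean CPM above 5, 0.68 with log2(CPM + 1), 0.63 with library weights, 0.45 without progenitor library 1, 0.59 without monocyte library 2, 0.73 without monocyte library 3 and 0.59 without replicate 1 of both groups. Irf8, which monocyte and dendritic precursors require, was 7.05, 7.80 and 7.78 log2 CPM in progenitors and 7.14, 7.81 and 7.36 in monocytes. The groups overlapped (log2FC -0.11, adjusted p = 0.785). Spi1, the gene of PU.1, was 1.60, 2.23 and 2.21 log2 CPM in progenitors and 4.45, 4.29 and 4.28 in monocytes (log2FC 2.33, SE 0.28, adjusted p = 6.08e-04), and Klf4, which acts downstream of it in monocytes, was 1.96, 2.37 and 2.09 in progenitors and 4.97, 5.32 and 6.23 in monocytes (log2FC 3.37, SE 0.34, adjusted p = 2.98e-04). For both genes the monocyte libraries lay above all progenitors. Id1 and Id2, inhibitors of E proteins, were higher as well, with log2FC of 2.99 and 2.50, while Id3 was lower at -3.05. Cebpb was 0.01, 1.42 and 0.86 log2 CPM in progenitors and 2.46, 3.40 and 3.19 in monocytes (log2FC 2.25, SE 0.47, adjusted p = 0.0073); the call was lost at 1.87 (adjusted p = 0.0168 without progenitor library 1). Cebpa, which starts granulocyte and monocyte commitment, was -2.55, -0.21 and -4.34 log2 CPM in progenitors and -1.36, -4.34 and 0.70 in monocytes, too low to test.

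The factors that were lower include those of other lineages and of growth. Myc, which drives growth and ribosome production, was 8.53, 8.07 and 8.19 log2 CPM in progenitors and 5.75, 6.39 and 5.78 in monocytes (log2FC -2.29, SE 0.23, adjusted p = 2.55e-04). Gfi1b, a repressor of erythroid and megakaryocyte precursors, was 8.06, 6.89 and 7.47 log2 CPM in progenitors and 5.04, 4.97 and 2.74 in monocytes (log2FC -3.22, SE 0.59, adjusted p = 0.0044). Gata1 was 8.65, 7.50 and 7.91 log2 CPM in progenitors and 6.36, 5.51 and 3.96 in monocytes (log2FC -2.75, SE 0.56, adjusted p = 0.0069). For Gfi1b and Gata1, monocytes 3 was lowest, and no monocyte library reached a progenitor library. Bach2, a factor of lymphoid cells, was 3.90, 6.36 and 5.81 log2 CPM in progenitors and 2.72, 3.12 and 1.55 in monocytes (log2FC -2.89, SE 0.64, adjusted p = 0.0101), with progenitors 1 below the other progenitors. Gata2 was 4.30, 3.68 and 3.82 log2 CPM in progenitors and 4.17, 3.65 and 3.95 in monocytes, with overlapping groups (log2FC -0.01, adjusted p = 0.987). Without a filter on low values, 8 of the 20 calls were lost, those of Gata1, Gfi1b and Bach2 among them, and in the 12-library fit 9, those of Klf4 and Id2 among them.

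Stem and multipotent progenitor genes differed in part. Of 27 tested, 8 were lower in monocytes and 1 higher, with a median log2FC of -1.17 against -0.09 over all genes; the number of DEGs was 4 without progenitor library 1 and 5 without progenitor library 2. Kit, the receptor of stem cell factor, was 8.13, 7.02 and 7.33 log2 CPM in progenitors and 4.42, 4.50 and 3.13 in monocytes (log2FC -3.47, SE 0.41, adjusted p = 6.03e-04). Hlf, a factor of stem cells, was 3.16, 2.42 and 2.87 log2 CPM in progenitors and -0.70, -1.61 and -1.33 in monocytes (log2FC -4.03, SE 0.47, adjusted p = 5.16e-04). Neither gene overlapped between groups, but Hlf was above the limit in progenitors alone and had to differ to be tested. Cd34, a surface marker of progenitors, was 7.29, 6.56 and 6.80 log2 CPM in progenitors and 6.61, 6.40 and 5.93 in monocytes; its groups overlapped and it did not pass (log2FC -0.57, adjusted p = 0.117). Flt3 was 4.12, 4.15 and 4.20 log2 CPM in progenitors and 3.04, 2.98 and 3.00 in monocytes, nearly constant within each group, and its log2FC of -1.15 (adjusted p = 0.0049) was under the fold limit. Cdk6, a cyclin-dependent kinase of dividing progenitors, was 9.11, 8.72 and 8.33 log2 CPM in progenitors and 6.74, 6.74 and 6.93 in monocytes, just under the limit at -1.92 (adjusted p = 4.70e-04). Myb was 6.12, 6.71 and 6.60 log2 CPM in progenitors and 4.36, 4.40 and 4.61 in monocytes (log2FC -2.02, SE 0.21, adjusted p = 3.29e-04); this call was lost at -1.90 (adjusted p = 0.0016 without progenitor library 2), -1.96 (adjusted p = 0.0029 without progenitor library 3), -1.97 (adjusted p = 0.0016 without monocyte library 1) and -1.99 (adjusted p = 0.0022 without monocyte library 2). Of 9 calls on this list, 5 were lost in the 12-library fit (Kit at adjusted p = 0.156 and Myb at adjusted p = 0.4) and 4 with no filter.

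The member that was higher is Ly6a, the gene of Sca-1, at 1.05, -0.02 and 1.11 log2 CPM in progenitors and 4.24, 1.70 and 2.30 in monocytes (log2FC 2.03, SE 0.67, adjusted p = 0.0466). It lost its call at 2.20 (adjusted p = 0.0797 without progenitor library 1), 1.66 (adjusted p = 0.125 without progenitor library 2), 2.23 (adjusted p = 0.0786 without progenitor library 3), 1.29 (adjusted p = 0.107 without monocyte library 1) and 2.26 (adjusted p = 0.0615 without monocyte library 3), and thus in 5 of 6 such fits. Slamf1, which stem cells share with megakaryocytes, varied within monocytes. It was 3.87, 4.49 and 4.80 log2 CPM in progenitors and 7.02, 5.73 and 2.06 in monocytes. Monocytes 1 and 2 lay above every progenitor library and monocytes 3 below, as in the megakaryocyte sums, and it did not pass (log2FC 0.55, adjusted p = 0.723). The summed CPM of the 33 stem and multipotent progenitor genes was 1477, 1123 and 1099 in progenitors and 741, 529.7 and 345 in monocytes, and every progenitor library was above every monocyte library. Of the genes tested, 2 were above the limit in progenitors alone. Mecom, Hoxa5, Hoxa10, Mycn, Nkx2-3 and Zfpm1 were too low to test.

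Primary granule genes are made from the granulocyte-monocyte progenitor on. Of those tested, 10% were DEGs, near the 10.2% over all genes. Of 10 tested, 1 was higher and 0 lower (3 lower at an unadjusted p below 0.05 in limma), with a median log2FC of -0.27 (-0.87 to 0.05 over the alternatives). Mpo, myeloperoxidase, was 12.25, 13.09 and 13.40 log2 CPM in progenitors and 11.97, 12.19 and 12.34 in monocytes (log2FC -0.75, adjusted p = 0.108). Elane, neutrophil elastase, was 10.44, 12.22 and 12.16 log2 CPM in progenitors and 9.82, 10.38 and 11.39 in monocytes (log2FC -1.07, adjusted p = 0.162). Prtn3, proteinase 3, was 7.73, 9.49 and 9.66 log2 CPM in progenitors and 8.13, 8.71 and 9.27 in monocytes (log2FC -0.26, adjusted p = 0.73). None of the 3 passed, and the groups overlapped for Elane and Prtn3 and, through progenitors 1, for Mpo. The member that was higher, Igsf6, a membrane protein of the immunoglobulin superfamily, was 6.72, 7.97 and 7.95 log2 CPM in progenitors and 9.49, 9.95 and 9.55 in monocytes (log2FC 2.12, SE 0.34, adjusted p = 0.0023) and lost its call at 1.70 (adjusted p = 0.0011 without progenitor library 1) and 1.97 (adjusted p = 0.011 without monocyte library 2). The number of DEGs on the list was 0 without monocyte library 2 and 2 without monocyte library 3.

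Neutrophil genes of later granules varied between replicates in both groups. Of the list, 3 of 18 tested were higher and 0 lower in monocytes (0 lower at an unadjusted p below 0.05 in limma), with a median log2FC of 0.73 (-0.19 to 1.71 over the alternatives) against -0.09 over all genes. Ngp, a granule protein and the largest contributor to the list's sum in 5 of the 6 libraries, was 7.54, 12.63 and 11.02 log2 CPM in progenitors and 7.85, 12.47 and 11.05 in monocytes (log2FC 0.06, adjusted p = 0.98). S100a8, a calcium-binding protein of neutrophils and monocytes, was 5.04, 9.92 and 9.79 log2 CPM in progenitors and 6.71, 10.16 and 9.67 in monocytes (log2FC 0.59, adjusted p = 0.768). Ly6g, the defining neutrophil surface marker, was -0.87, 3.19 and 1.43 log2 CPM in progenitors and 0.20, 3.56 and 2.75 in monocytes (log2FC 0.92, adjusted p = 0.563). In all 3 genes replicate 1 was lowest in both groups, and the groups overlapped. Mmp8, a collagenase of granules, was higher in every monocyte library, at 4.91, 7.37 and 5.49 log2 CPM in progenitors and 8.95, 9.62 and 9.52 in monocytes (log2FC 3.44, SE 0.55, adjusted p = 0.0024). Of 3 calls on this list, 3 were lost in the 12-library fit (Mmp8 at adjusted p = 0.0818). Neutrophil DEGs numbered 1 without progenitor library 1, 1 without monocyte library 1 and 1 without monocyte library 2. Olfm4 was at the lowest value in all libraries.

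Erythroid genes were lower in the monocyte fraction. All 21 members tested were lower in monocytes and 0 higher (0 higher at an unadjusted p below 0.05 in limma), against a background of 5.29% lower, with a median log2FC of -4.34 (range -6.09 to -2.20), which was -3.70 without monocyte library 3. Car2, carbonic anhydrase 2, was 12.50, 11.92 and 12.14 log2 CPM in progenitors and 7.44, 7.65 and 6.55 in monocytes (log2FC -4.97, SE 0.30, adjusted p = 5.70e-05). Tfrc, the transferrin receptor, was 8.45, 8.12 and 8.26 log2 CPM in progenitors and 5.18, 4.70 and 4.41 in monocytes (log2FC -3.51, SE 0.23, adjusted p = 5.70e-05). Both separated the groups. Klf1, an activator of globin genes, was 2.25, 4.09 and 2.82 log2 CPM in progenitors and -2.75, -1.36 and -1.03 in monocytes (log2FC -4.77, SE 0.67, adjusted p = 0.0013), and Epor, the erythropoietin receptor, was 6.11, 5.14 and 5.36 in progenitors and 2.45, 2.74 and 0.00 in monocytes (log2FC -3.81, SE 0.67, adjusted p = 0.0036). Tspo2, a membrane protein of red cell precursors, had the largest fall of the list, at 4.83, 4.32 and 4.74 log2 CPM in progenitors and -1.10, -0.40 and -2.90 in monocytes (log2FC -6.09, SE 0.62, adjusted p = 2.99e-04). Klf1 and Tspo2 were above the limit in progenitors alone and had to differ between the groups to be tested. The globin genes varied in the other direction within progenitors: Hba-a1 was 8.97, 10.43 and 10.58 log2 CPM in progenitors and 6.92, 6.73 and 5.19 in monocytes and Hbb-bs 8.82, 9.79 and 10.24 in progenitors and 6.71, 5.70 and 4.63 in monocytes, with progenitors 1 lowest, while Car1, carbonic anhydrase 1, was 11.05, 9.61 and 10.14 in progenitors and 5.37, 5.30 and 4.78 in monocytes, with progenitors 1 highest. The globin genes Hba-a1 and Hba-a2 are near copies of each other, and how their reads were divided was not tested.

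The summed CPM of the erythroid genes was 14410.2, 11008 and 13164 in progenitors and 806, 668 and 296 in monocytes, with Car2 the largest contributor in all 6 libraries, so that monocytes 3 held the least. Of the 21 genes, 2 (Klf1 and Tspo2) were above the limit in progenitors alone. Without a filter on low values 1 call was lost, that of Epor, and in the 12-library fit 1, that of Tfrc. Which cells carried this RNA was not tested. GATA factors bind the core AGATAA. It was found on either strand in 3672 of 32851 promoters (11.2%) and in 6 of the 15 erythroid genes with a promoter in the table (40%). Other lists ran from 0% to 66.7% (NADPH oxidase, only 2 of 3 genes with a promoter), with 33.3% of megakaryocyte and platelet genes (4 of 12). The 3 erythroid genes with the largest falls among those with a match are shown in the same way. They are Rhd, a Rhesus blood group protein (chr4:134864286-134864585 on the + strand), Hemgn, a nuclear protein of red cell precursors (chr4:46404134-46404433 on the - strand), and Trim10, a protein of terminal erythroid maturation (chr17:36869324-36869623 on the + strand). Rhd was 9.48, 8.93 and 8.93 log2 CPM in progenitors and 4.22, 4.83 and 2.50 in monocytes, Hemgn was 7.65, 7.24 and 7.44 in progenitors and 4.12, 3.37 and 1.73 in monocytes, and Trim10 was 5.49, 5.24 and 5.53 in progenitors and 1.79, 1.49 and 0.21 in monocytes. Their log2FC were -5.26, -4.37 and -4.26 and their adjusted p 2.58e-04, 6.04e-04 and 2.25e-04.
Rhd: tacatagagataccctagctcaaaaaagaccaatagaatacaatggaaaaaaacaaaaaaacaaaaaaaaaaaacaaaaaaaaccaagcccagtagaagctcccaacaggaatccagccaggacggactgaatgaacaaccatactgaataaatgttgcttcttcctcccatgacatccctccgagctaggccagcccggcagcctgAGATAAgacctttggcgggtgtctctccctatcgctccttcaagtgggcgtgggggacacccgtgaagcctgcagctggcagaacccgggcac
Hemgn: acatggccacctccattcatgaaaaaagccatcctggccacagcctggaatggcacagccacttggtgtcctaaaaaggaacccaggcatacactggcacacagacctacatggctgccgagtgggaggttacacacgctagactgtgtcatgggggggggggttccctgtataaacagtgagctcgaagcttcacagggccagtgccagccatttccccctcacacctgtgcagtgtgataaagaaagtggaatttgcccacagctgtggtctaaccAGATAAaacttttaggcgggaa
Trim10: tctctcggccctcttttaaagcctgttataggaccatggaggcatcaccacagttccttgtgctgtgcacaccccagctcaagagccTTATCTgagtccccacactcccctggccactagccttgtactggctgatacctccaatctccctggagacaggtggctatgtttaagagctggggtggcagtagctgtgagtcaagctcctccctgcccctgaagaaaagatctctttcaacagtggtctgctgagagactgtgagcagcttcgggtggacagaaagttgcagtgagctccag

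Each of the promoters of Rhd, Hemgn and Trim10 holds 1 match. Of the 631 genes named by the rules of this comparison, 485 had a promoter in the table.

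B lineage genes were lower in monocytes as well. Of 16 tested, 12 were lower and 0 higher (0 higher at an unadjusted p below 0.05 in limma), with a median log2FC of -3.89 against -0.09 over all genes. Vpreb1 and Igll1, which form the surrogate light chain of B cell precursors, had log2FC of -4.25 and -4.43. Vpreb1 was 5.02, 6.81 and 6.32 log2 CPM in progenitors and 1.50, 1.57 and 2.35 in monocytes. Ebf1, an early B lineage factor, was 5.86, 8.21 and 7.13 log2 CPM in progenitors and 1.99, 3.13 and 2.85 in monocytes (log2FC -4.41, SE 0.56, adjusted p = 7.73e-04). Each of these separated the groups, and progenitors 1 was the lowest progenitor library. Il7r, the interleukin 7 receptor, was 4.34, 5.52 and 5.66 log2 CPM in progenitors and 2.71, 2.25 and 2.16 in monocytes (log2FC -2.80, SE 0.38, adjusted p = 0.0011). Pax5, the B cell commitment factor, was 3.17, 6.00 and 5.25 log2 CPM in progenitors and 0.25, 2.79 and 1.46 in monocytes (log2FC -3.31, SE 0.81, adjusted p = 0.015) and lost its call at -3.09 (adjusted p = 0.0523 without progenitor library 3). Of 12 calls on this list, 1 was lost in the 12-library fit (Il7r at adjusted p = 0.29) and 4 with no filter. Ighm, the heavy chain of IgM, was 9.47, 10.68 and 10.51 log2 CPM in progenitors and 10.77, 10.27 and 9.84 in monocytes and did not pass (log2FC 0.07, adjusted p = 0.899); it was the largest contributor to the list's summed CPM of 1182, 3625 and 2873 in progenitors and 1889, 1364 and 1054 in monocytes, in which the groups overlapped.

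Dendritic cell genes were higher or lower in part. Of the list, 7 of 16 were lower and 2 higher, with a median log2FC of -1.11, which was -1.72 with a mean CPM above 5, -1.87 without monocyte library 1 and -2.03 without replicate 1 of both groups. Siglech, a surface lectin of plasmacytoid dendritic cells, was 5.13, 6.32 and 6.43 log2 CPM in progenitors and 1.76, 2.05 and 1.88 in monocytes (log2FC -4.06, SE 0.36, adjusted p = 1.60e-04). Spib, an ETS factor of B and plasmacytoid cells, was 5.00, 7.93 and 7.63 log2 CPM in progenitors and 2.55, 2.71 and 2.69 in monocytes (log2FC -4.21, SE 0.67, adjusted p = 0.0023). Both were above the monocyte values in every progenitor library. Zbtb46, a factor of conventional dendritic cells, was lower too, at -2.52 (adjusted p = 0.0026). Cd209a, a lectin of monocyte-derived dendritic cells, was 5.22, 5.39 and 5.41 log2 CPM in progenitors and 6.91, 6.74 and 5.43 in monocytes (log2FC 1.02, adjusted p = 0.0587), and Clec10a, another lectin, was 4.28, 4.55 and 4.98 in progenitors and 6.21, 6.26 and 6.03 in monocytes (log2FC 1.56, adjusted p = 0.0013), and neither reached the fold limit. The DEGs that were higher, Batf3 (above the limit in monocytes alone) and Irf7, have log2FC of 2.65 and 2.02. Batf3 lost its call at 2.26 (adjusted p = 0.0558 without progenitor library 1) and 2.54 (adjusted p = 0.0663 without progenitor library 3), and Irf7 at 1.78 (adjusted p = 0.0034 without progenitor library 1) and 1.83 (adjusted p = 0.0068 without monocyte library 2). Of 9 calls on this list, 2 were lost in the 12-library fit (Batf3 at adjusted p = 0.0848 and Irf7 at adjusted p = 0.086). The summed CPM of the list was 375, 873 and 792 in progenitors and 355, 357 and 259 in monocytes. Xcr1, a marker of cross-presenting dendritic cells, was too low to test.

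Of the T and NK cell genes, 0 of 15 tested were higher and 1 lower in monocytes (0 higher at an unadjusted p below 0.05 in limma), with a median log2FC of -0.79 and a summed CPM of 354, 603 and 611 in progenitors and 161, 186 and 238 in monocytes, highest for Nkg7. The share lower was 6.67% of those tested, near the 5.29% over all genes. Cd3e, a chain of the T cell receptor complex, was 1.51, 2.51 and 3.09 log2 CPM in progenitors and 2.12, 2.20 and 1.80 in monocytes (log2FC -0.33, adjusted p = 0.6), and the groups overlapped. Ncr1, an NK cell receptor, was 4.74, 4.58 and 4.65 log2 CPM in progenitors and 3.11, 3.25 and 3.37 in monocytes and under the fold limit (log2FC -1.41, adjusted p = 0.0017). The DEG was Cd4, at 1.21, 3.25 and 2.46 log2 CPM in progenitors and 0.18, -1.09 and 0.04 in monocytes (log2FC -2.60, SE 0.63, adjusted p = 0.014), which lost its call at -2.13 (adjusted p = 0.0582 without progenitor library 2) and -2.52 (adjusted p = 0.0582 without progenitor library 3). DEGs of T and NK cells numbered 2 without progenitor library 1, 0 without progenitor library 2, 0 without progenitor library 3 and 2 without monocyte library 3. Cd8a, Klra8 and Tbx21 were too low to test. Of the plasma cell genes, 0 of 5 tested were higher and 1 lower in monocytes (1 higher at an unadjusted p below 0.05 in limma), with a median log2FC of -1.30, which was -0.01 with no filter and -0.63 with a mean CPM above 5. The DEG was Mzb1, a chaperone of antibody-secreting and plasmacytoid cells, at 4.14, 6.44 and 6.06 log2 CPM in progenitors and 4.35, 2.28 and 2.40 in monocytes (log2FC -2.54, SE 0.70, adjusted p = 0.0247). Its groups overlapped through monocytes 1, and its call was lost at -2.09 (adjusted p = 0.0741 without progenitor library 2), -2.28 (adjusted p = 0.0799 without progenitor library 3), -2.18 (adjusted p = 0.0787 without monocyte library 2) and -2.24 (adjusted p = 0.0681 without monocyte library 3), and also in the 12-library fit and with no filter. DEGs on the list numbered 2 without progenitor library 1, 0 without progenitor library 2, 0 without progenitor library 3 and 0 without monocyte library 3. Its summed CPM was 447, 261 and 359 in progenitors and 1301, 165 and 154 in monocytes, highest for Igj.

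Megakaryocyte and platelet genes showed no DEG but a wide spread. Of the list, 0 of 15 tested were higher and 0 lower in monocytes (in limma, 0 higher and 1 lower at an unadjusted p below 0.05), with a median log2FC of 0.56. Ppbp, a platelet chemokine and the largest contributor to the sum in all 6 libraries, was 6.44, 8.26 and 8.46 log2 CPM in progenitors and 10.44, 9.63 and 6.18 in monocytes (log2FC 1.03, adjusted p = 0.473). Itga2b, the platelet integrin alpha IIb, was 6.14, 6.46 and 7.08 log2 CPM in progenitors and 9.06, 7.57 and 4.65 in monocytes (log2FC 0.53, adjusted p = 0.693). In both, monocytes 1 and 2 were above all progenitors and monocytes 3 below all of them. DEGs of this list numbered 1 without monocyte library 1, 1 without monocyte library 2 and 5 without monocyte library 3, and the median was 1.85 without monocyte library 3 and -0.68 without replicate 1 of both groups. Gp1bb was too low to test.

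Basophil genes were present in both fractions. Of the basophil and mast cell list, 0 of 15 tested were higher and 0 lower in monocytes (in limma, 2 higher and 2 lower at an unadjusted p below 0.05), with a median log2FC of 0.21. Prss34, a serine protease of basophils, was 11.98, 11.33 and 11.37 log2 CPM in progenitors and 11.53, 11.74 and 12.04 in monocytes (log2FC 0.21, adjusted p = 0.57), and it was the largest contributor to the summed CPM of 4889.8, 3283 and 3676 in progenitors and 3946, 4397 and 5294 in monocytes. Mcpt8, another basophil protease, was 8.35, 8.13 and 8.75 log2 CPM in progenitors and 8.85, 8.78 and 9.06 in monocytes (log2FC 0.49, adjusted p = 0.0987). Cpa3, a carboxypeptidase of basophils and mast cells, was 6.95, 6.60 and 7.47 log2 CPM in progenitors and 7.41, 7.17 and 7.50 in monocytes (log2FC 0.35, adjusted p = 0.287). For Prss34 and Cpa3 the groups overlapped. Mcpt4 and Tpsab1, proteases of mature mast cells, were at the lowest value in all 6 libraries and Tpsb2 in 5. Without monocyte library 1 the list had 1 DEG. Of the eosinophil genes, 2 of 8 were lower and 1 higher, with a median log2FC of -1.08, which was 0.40 with a mean CPM above 5, -1.60 without progenitor library 1 and -1.51 without replicate 1 of both groups. Ear1 was the higher member, at 1.85, 1.62 and 1.78 log2 CPM in progenitors and 5.32, 5.41 and 5.92 in monocytes (log2FC 3.80, SE 0.25, adjusted p = 6.26e-05); its call was lost in the 12-library fit. Epx, eosinophil peroxidase, was 6.53, 5.65 and 6.21 log2 CPM in progenitors and 3.59, 4.20 and 4.49 in monocytes (log2FC -2.03, SE 0.31, adjusted p = 0.0017) and lost its call at -1.84 (adjusted p = 0.0064 without progenitor library 1), -1.99 (adjusted p = 0.0094 without progenitor library 3) and -1.78 (adjusted p = 0.0047 without monocyte library 1). On this list, DEGs numbered 1 without progenitor library 3 and 1 without monocyte library 1. The summed CPM was 435, 335 and 438 in progenitors and 142, 179 and 239 in monocytes, highest for Prg2, major basic protein, and Il5ra was at the lowest value in all 6 libraries.

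Tissue macrophage genes gave a mixed picture: 3 of 13 were higher and 1 lower, with a median log2FC of -0.32, which was -1.10 with no filter, -1.16 without progenitor library 1 and -1.22 without replicate 1 of both groups. Slc40a1, the iron exporter ferroportin, was 6.90, 6.10 and 6.46 log2 CPM in progenitors and 1.73, 2.37 and 1.99 in monocytes (log2FC -4.46, SE 0.28, adjusted p = 5.70e-05). Trem2, a lipid receptor of macrophages, was 2.21, 2.56 and 1.99 log2 CPM in progenitors and 5.17, 4.99 and 5.67 in monocytes (log2FC 3.02, SE 0.28, adjusted p = 1.84e-04). Both separated the groups. C1qb, a chain of complement C1q, was 0.54, 5.34 and 3.92 log2 CPM in progenitors and 0.28, 0.23 and 2.30 in monocytes (log2FC -2.33, adjusted p = 0.147), and Vcam1, an adhesion molecule of marrow macrophages and stroma, was 2.51, 6.73 and 6.43 in progenitors and 3.11, 3.74 and 3.78 in monocytes (log2FC -1.69, adjusted p = 0.215). For C1qb and Vcam1, progenitors 2 and 3 were high and progenitors 1 near the monocytes. C1qb and Vcam1 each passed in 3 of 17 alternatives, with library weights, without progenitor library 1 and without replicate 1 of both groups. Of 4 calls on this list, 2 were lost in the 12-library fit (Trem2 at adjusted p = 0.189) and 2 with no filter. With library weights and without replicate 1 of both groups the list had 7 DEGs. The summed CPM was 165, 410.0 and 280.1 in progenitors and 151, 185 and 169.6 in monocytes. Of the stroma and endothelium genes, 0 of 10 tested were higher and 1 lower in monocytes (0 higher at an unadjusted p below 0.05 in limma), with a median log2FC of -0.11 (-0.83 to 0.71 over the alternatives). DEGs were 10% of those tested, near the 10.2% over all genes. The DEG was Cdh5, which encodes VE-cadherin, at 1.92, 2.30 and 1.89 log2 CPM in progenitors and -2.08, -1.43 and -4.34 in monocytes (log2FC -4.66, SE 0.81, adjusted p = 0.0034). Col1a1, a collagen chain, was -0.92, 5.57 and 5.95 log2 CPM in progenitors and 2.35, 6.27 and 3.60 in monocytes (log2FC 0.54, adjusted p = 0.841) and varied within both groups. The count was 0 with a mean CPM above 5 and without progenitor library 2 or 3, and 2 with no filter and with library weights. Cdh5, above the limit in progenitors alone, had too few libraries to be tested when progenitor library 1, 2 or 3 was left out. The summed CPM was 87.2, 258 and 258 in progenitors and 172, 183 and 75.1 in monocytes, highest for Pecam1, Vcam1 or Col1a1, and Col3a1 was too low to test.

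The lists of cell cycle genes held 0 DEGs. Of the S phase list, 0 of 35 tested were higher and 0 lower in monocytes (in limma, 1 higher and 29 lower at an unadjusted p below 0.05), with a median log2FC of -0.78 against -0.09 over all genes; without the fold limit 25 were lower. Mcm2, a subunit of the replicative helicase, was 10.37, 9.62 and 9.70 log2 CPM in progenitors and 8.53, 8.47 and 8.18 in monocytes (log2FC -1.50, adjusted p = 0.0021). It separated the groups. Of the G2/M list, 0 of 35 tested were higher and 0 lower in monocytes (in limma, 5 higher and 1 lower at an unadjusted p below 0.05), with a median of 0.06 (-0.12 to 0.10 over the alternatives). Mki67, the proliferation marker Ki-67, was 8.08, 8.60 and 8.44 log2 CPM in progenitors and 8.50, 8.28 and 8.52 in monocytes (log2FC 0.06, adjusted p = 0.828), and Top2a, topoisomerase II alpha, was 8.99, 9.42 and 9.32 in progenitors and 9.36, 9.41 and 9.29 in monocytes (log2FC 0.11, adjusted p = 0.67). The groups overlapped for both. Among cell cycle inhibitors and related genes, 0 of 13 tested were higher and 0 lower in monocytes (in limma, 7 higher and 2 lower at an unadjusted p below 0.05), with a median of 1.05, which was 0.65 with library weights and 0.64 without progenitor library 1; the number of DEGs was 1 without progenitor library 3 and 1 without monocyte library 1. Cdkn1a, which encodes p21, was 3.95, 4.56 and 4.44 log2 CPM in progenitors and 4.66, 5.87 and 5.56 in monocytes (log2FC 1.05, adjusted p = 0.0408).

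Of the ribosome biogenesis genes, 0 of 30 tested were higher and 2 lower in monocytes (0 higher at an unadjusted p below 0.05 in limma), with a median log2FC of -1.46 against -0.09 over all genes. The 2 are 6.67% of those tested, near the 5.29% lower over all genes. Without the fold limit 27 of 30 were lower, against 17.7% over all genes. Ncl, which encodes nucleolin, was 10.83, 10.03 and 10.13 log2 CPM in progenitors and 8.67, 8.16 and 8.49 in monocytes (log2FC -1.89, adjusted p = 0.0011). Gnl3, nucleostemin, was 7.01, 6.07 and 6.39 log2 CPM in progenitors and 4.04, 3.88 and 4.22 in monocytes (log2FC -2.45, SE 0.26, adjusted p = 3.63e-04). Rrp12, a ribosome export factor, was 7.39, 5.79 and 6.08 log2 CPM in progenitors and 4.77, 4.04 and 3.96 in monocytes (log2FC -2.16, SE 0.42, adjusted p = 0.0055). Each separated the groups, with progenitors 1 the highest library. Rrp12 lost its call at -1.68 (adjusted p = 0.0064 without progenitor library 1). DEGs of ribosome biogenesis numbered 1 without progenitor library 1, 5 without progenitor library 2 and 4 without progenitor library 3.

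Lysosome genes were mostly higher in monocytes, many by less than the fold limit. Of the list, 9 of 34 tested were higher and 0 lower in monocytes (2 lower at an unadjusted p below 0.05 in limma), with a median log2FC of 1.42 against -0.09 over all genes, and without the fold limit 28 of 34 were higher and 2 lower. Ctss, the protease cathepsin S, was 6.32, 7.32 and 7.05 log2 CPM in progenitors and 9.99, 10.28 and 10.16 in monocytes (log2FC 3.25, SE 0.26, adjusted p = 1.14e-04). Psap, the precursor of saposins, was 10.17, 10.84 and 10.69 log2 CPM in progenitors and 13.29, 13.25 and 13.21 in monocytes (log2FC 2.68, SE 0.24, adjusted p = 1.64e-04). Cd68, a membrane protein of late endosomes, was 5.62, 6.48 and 5.93 log2 CPM in progenitors and 8.71, 9.03 and 9.11 in monocytes (log2FC 2.94, SE 0.24, adjusted p = 1.30e-04). All 3 separated the groups. Of 9 calls on this list, 4 were lost in the 12-library fit (Ctss at adjusted p = 0.0956, Psap at adjusted p = 0.137 and Cd68 at adjusted p = 0.0509). Ctsd, the protease cathepsin D, was 8.95, 8.73 and 8.77 log2 CPM in progenitors and 9.13, 9.02 and 8.99 in monocytes (log2FC 0.23, adjusted p = 0.305) and did not pass. Of the NADPH oxidase genes, 4 of 7 tested were higher and 0 lower in monocytes (0 lower at an unadjusted p below 0.05 in limma), with a median of 2.16, which was 1.74 without progenitor library 1. Cybb, the catalytic subunit gp91phox, was 6.53, 8.40 and 7.75 log2 CPM in progenitors and 10.59, 10.77 and 10.55 in monocytes (log2FC 3.08, SE 0.41, adjusted p = 0.001), without overlap. Cyba and Ncf4, which encode further subunits, were higher too, at log2FC of 2.35 and 2.16. Cyba lost its call at 1.88 (adjusted p = 0.0058 without progenitor library 1), and Ncf4 at 1.74 (adjusted p = 0.0016 without progenitor library 1). NADPH oxidase DEGs numbered 1 without progenitor library 1. Of 4 calls on this list, 1 was lost in the 12-library fit (Cybb at adjusted p = 0.123).

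Of the Fc receptor and complement genes, 13 of 22 tested were higher and 1 lower, with a median log2FC of 2.24. Clec7a, the receptor dectin-1, was 2.67, 3.24 and 3.32 log2 CPM in progenitors and 7.12, 7.00 and 6.61 in monocytes (log2FC 3.83, SE 0.25, adjusted p = 5.70e-05). It separated the groups. The member that was lower was Cd55, which limits complement, at -2.16 (adjusted p = 0.0037), and it lost its call at -1.71 (adjusted p = 0.0029 without monocyte library 3). Of 14 calls on this list, 3 were lost in the 12-library fit. Of the pattern recognition genes, 14 of 27 tested were higher and 0 lower in monocytes (0 lower at an unadjusted p below 0.05 in limma), with a median of 2.16. Tlr13, a receptor for bacterial ribosomal RNA, was 2.85, 4.24 and 3.38 log2 CPM in progenitors and 7.55, 7.73 and 7.31 in monocytes (log2FC 4.04, SE 0.34, adjusted p = 1.33e-04). It separated the groups. Of 14 calls on this list, 4 were lost in the 12-library fit and 3 with no filter. Tlr4, the lipopolysaccharide receptor, was 2.16, 3.45 and 3.62 log2 CPM in progenitors and 4.97, 5.03 and 4.59 in monocytes, under the fold limit at 1.79 (adjusted p = 0.0091).

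Of the cytokine receptor genes, 11 of 29 tested were higher and 2 lower, the latter being Kit and Epor, with a median log2FC of 1.30 against -0.09 over all genes; the number of DEGs was 8 without progenitor library 1. Il6ra, a chain of the interleukin 6 receptor, was 2.29, 3.33 and 2.97 log2 CPM in progenitors and 5.56, 6.20 and 6.26 in monocytes (log2FC 3.15, SE 0.32, adjusted p = 2.96e-04). Tnfrsf1b, a TNF receptor, was 4.58, 4.64 and 5.18 log2 CPM in progenitors and 7.76, 7.62 and 7.03 in monocytes (log2FC 2.67, SE 0.25, adjusted p = 2.14e-04). Both separated the groups. Of 13 calls on this list, 7 were lost in the 12-library fit (Tnfrsf1b at adjusted p = 0.0684 and Kit at adjusted p = 0.156). Of the chemokine receptor and adhesion genes, 10 of 29 were higher and 2 lower, with a median of 1.19. Ccr1, a receptor of inflammatory chemokines, was 4.17, 4.76 and 4.17 log2 CPM in progenitors and 7.04, 7.35 and 7.23 in monocytes (log2FC 2.84, SE 0.22, adjusted p = 1.05e-04), without overlap. Cxcr4, which holds cells in the marrow, was 2.40, 4.32 and 3.46 log2 CPM in progenitors and 3.62, 4.90 and 4.73 in monocytes and overlapped (log2FC 1.03, adjusted p = 0.16). Of 12 calls on this list, 8 were lost in the 12-library fit (Ccr1 at adjusted p = 0.173) and 5 with no filter.

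Of the MHC class II genes, 1 of 9 tested were higher and 0 lower in monocytes (0 lower at an unadjusted p below 0.05 in limma), with a median log2FC of -0.10 (-0.89 to 0.30 over the alternatives). DEGs were 11.1% of those tested, near the 10.2% over all genes. Cd74, the invariant chain, was 8.57, 10.15 and 9.52 log2 CPM in progenitors and 10.33, 9.38 and 8.52 in monocytes, with overlapping groups (log2FC -0.01, adjusted p = 0.995). The DEG was H2-DMa, a peptide loading factor, at 2.01 (adjusted p = 0.001). It lost its call at 1.90 (adjusted p = 0.003 without progenitor library 1) and 1.86 (adjusted p = 0.0054 without monocyte library 2), and in the 12-library fit. The number of DEGs was 0 without progenitor library 1 and 0 without monocyte library 2. Of the MHC class I genes, 0 of 13 tested were higher and 0 lower in monocytes (in limma, 6 higher and 0 lower at an unadjusted p below 0.05), with a median of 0.42. Of the interferon-stimulated genes, 8 of 28 tested were higher and 0 lower in monocytes (1 lower at an unadjusted p below 0.05 in limma), with a median of 1.36, and the number of DEGs was 4 without progenitor library 1 and 4 without monocyte library 2. Ifitm3, a restriction factor of viruses, was 5.79, 6.33 and 6.47 log2 CPM in progenitors and 9.04, 9.78 and 9.75 in monocytes (log2FC 3.32, SE 0.26, adjusted p = 1.11e-04), without overlap. Of 8 calls on this list, 4 were lost in the 12-library fit. Isg15, a ubiquitin-like protein, was 0.25, 1.28 and 1.38 log2 CPM in progenitors and 1.32, 2.18 and 1.35 in monocytes and overlapped (log2FC 0.65, adjusted p = 0.325). Of the scavenger and lipid uptake genes, 5 of 17 tested were higher and 0 lower in monocytes (0 lower at an unadjusted p below 0.05 in limma), with a median of 0.23, which was 0.74 without progenitor library 2 and 0.73 without monocyte library 1. Msr1, a class A scavenger receptor, was 1.65, 2.95 and 2.46 log2 CPM in progenitors and 6.98, 6.96 and 6.93 in monocytes (log2FC 4.61, SE 0.32, adjusted p = 6.78e-05), without overlap. Of 5 calls on this list, 4 were lost in the 12-library fit (Msr1 at adjusted p = 0.0587). Cd36, a fatty acid receptor, was 2.65, 3.31 and 3.34 log2 CPM in progenitors and 3.46, 4.04 and 2.17 in monocytes and overlapped (log2FC 0.12, adjusted p = 0.866). Of the immediate early genes, 2 of 18 tested were higher and 0 lower in monocytes (2 lower at an unadjusted p below 0.05 in limma), with a median of 1.20 (0.49 to 1.71 over the alternatives). These DEGs were 11.1% of those tested, near the 10.2% over all genes. Atf3, a stress factor, was -0.88, -0.83 and -0.86 log2 CPM in progenitors and 2.53, 3.05 and 2.10 in monocytes (log2FC 3.42, SE 0.44, adjusted p = 8.55e-04), above the limit in monocytes alone. The other DEG was Zfp36, an mRNA decay factor, at 2.73 (adjusted p = 0.0153), and it lost its call at 1.90 (adjusted p = 0.0141 without progenitor library 1) and 2.35 (adjusted p = 0.0533 without monocyte library 2). The number of DEGs was 1 without progenitor library 1, 4 without monocyte library 1 and 0 without monocyte library 2, and 4 without replicate 1 of both groups. Of 2 calls on this list, 1 was lost in the 12-library fit (Atf3 at adjusted p = 0.0611). Fos, at 3.19, did not pass (adjusted p = 0.113) but did in 5 of 17 alternatives with this fold limit.

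**Figure D4:**
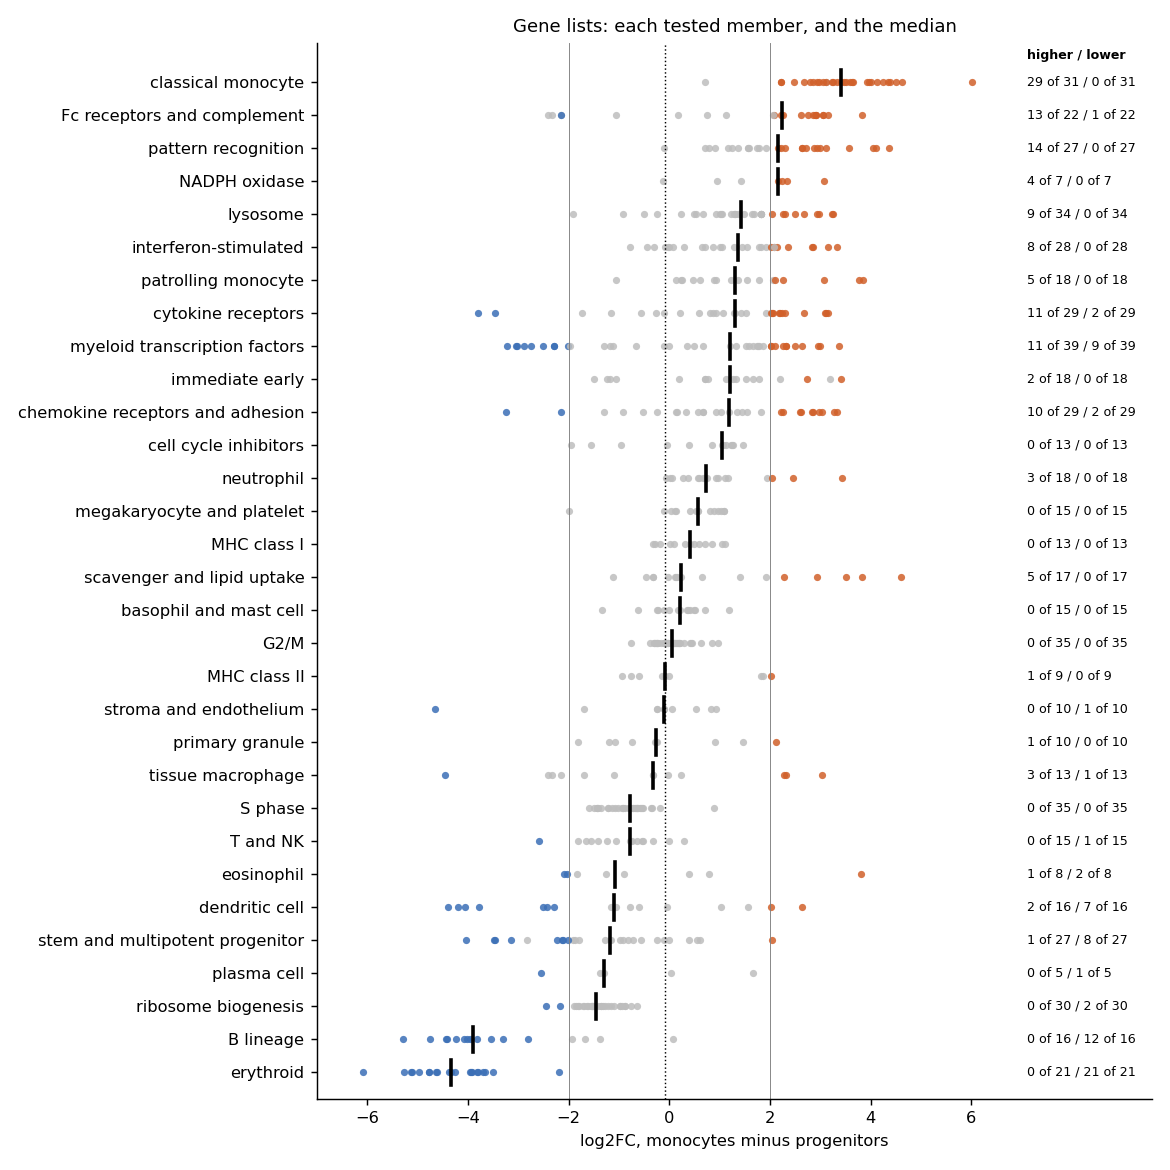
Log2FC of each tested member (points, coloured by whether the member passed and in which direction) for 31 gene lists, with the list's median as a black bar and the median over all genes, -0.09, as a dotted line. The classical monocyte median of 3.41 and the erythroid median of -4.34 lie farthest above and below it.

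Of the genes without overlap between groups, the 10 with the largest change each way were taken, from 567 DEGs that were higher and 608 that were lower. After Vcan, the genes that were higher were Ms4a8a, Hmgxb3, Tyk2, Klra2, Gm5150, Gm17944, Sirpb1a, Ugt1a1 and Sirpb1c, with log2FC of 5.64 down to 4.82. Ms4a8a, a tetraspan membrane protein, was -4.34, -1.74 and -4.34 log2 CPM in progenitors and 1.94, 1.92 and 2.65 in monocytes (log2FC 5.64, SE 0.85, adjusted p = 0.0017). Sirpb1a, an activating signal-regulatory protein, was 1.19, 1.14 and 1.59 log2 CPM in progenitors and 6.60, 6.24 and 6.11 in monocytes (log2FC 5.01, SE 0.25, adjusted p = 4.47e-05). Hmgxb3 was -3.56, -4.34 and -4.34 log2 CPM in progenitors and 0.42, 2.15 and 1.36 in monocytes, at or under a floor of 3 counts in all progenitor libraries, so its difference is a bound, at least 40.4-fold higher. Tyk2, a kinase of cytokine receptors, was -4.34, 1.35 and -4.34 log2 CPM in progenitors and 2.86, 2.27 and 3.63 in monocytes, with progenitors 2 apart from the other progenitors, which were at the lowest value (log2FC 5.36, SE 1.42, adjusted p = 0.0206); it lost its call at 4.41 (adjusted p = 0.0667 without progenitor library 1), 4.41 (adjusted p = 0.0645 without progenitor library 3) and 5.01 (adjusted p = 0.0597 without monocyte library 3). In the 12-library fit the calls of Tyk2 and Sirpb1a were lost too, with no filter that of Tyk2, and with log2(CPM + 1) those of Hmgxb3 (1.80) and Ugt1a1 (1.77). Ms4a8a, Hmgxb3, Gm17944 and Ugt1a1 were above the limit in monocytes alone. The Ms4a and Sirpb1 genes and Gm5150 have close paralogs, and the division of reads between them was not tested.

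The genes with the largest falls were Sh3tc2, Agtr1a, Bmp1, Lmcd1, Tspo2, Slc25a21, Nmnat2, Scd1, Arhgef25 and Atp1b2, with log2FC from -7.51 to -5.86. Sh3tc2, an endosomal adaptor, was 5.58, 4.86 and 5.55 log2 CPM in progenitors and 0.54, -4.34 and -2.74 in monocytes (log2FC -7.51, SE 1.06, adjusted p = 0.0013). Bmp1, a matrix protease, was 2.82, 2.16 and 2.13 log2 CPM in progenitors and -4.34, -4.34 and -3.46 in monocytes, at or under that floor in all monocyte libraries, and is given as at least 82.1-fold lower. All 10 genes but Sh3tc2 and Atp1b2 were above the limit in progenitors alone.

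The step from progenitors to monocytes in marrow was set beside the step from day 0 to day 4 in M-CSF in ER-Hoxb8 cells. The difference of the 2 log2FC (marrow minus ER-Hoxb8) was tested in a fit of all 12 libraries of these groups and 12134 genes. It passed for 257 genes (2.12%), 84 higher in marrow (0.692%) and 173 lower (1.43%), and in 211 of them the log2FC had opposite signs. Choosing genes for a large difference favours opposite signs, so the 211 are not a separate result. Of the 257, 15 were higher in the later state of both sources. Replicate numbers paired the ER-Hoxb8 libraries, and with them as a replicate block in these cells alone, an alternative chosen after seeing the data, 518 genes passed, 223 higher and 295 lower. For the ER-Hoxb8 step alone, 0 genes passed in limma, with or without this block, and 1135 had an unadjusted p below 0.05 without it and 2160 with it. Replicates of day 0 spread most: the median over genes of the SD between replicates was 0.30 in progenitors, 0.33 in monocytes, 0.65 at day 0 and 0.39 at day 4. Csf1r was 7.75, 10.45 and 3.10 at day 0 and 10.22, 10.40 and 9.79 at day 4 in ER-Hoxb8 cells, in log2 CPM, and Cx3cr1 was 0.64, 8.95 and 0.74 at day 0 and 8.53, 8.90 and 9.86 at day 4. Ccr2 was 1.49, 9.33 and 1.73 at day 0 and 2.34, 9.34 and 8.06 at day 4. In Csf1r, Cx3cr1 and Ccr2, day 0 library 2 lay above the lowest day 4 library, while the other day 0 libraries lay below all of them.

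The count of 257 moved by more than 1.5 times on leaving out single libraries. It was 72 without progenitor library 1, 87 without progenitor library 2, 51 without progenitor library 3, 152 without monocyte library 2, 125 without monocyte library 3, 575 without ER-Hoxb8 day 0 library 2, 570 without ER-Hoxb8 day 0 library 3, 116 without ER-Hoxb8 day 4 library 1 and 143 without ER-Hoxb8 day 4 library 3. The share that was higher ran from 20.4% without monocyte library 2 to 50.9% without ER-Hoxb8 day 0 library 3, against 32.7%. Of 12 genes chosen for this contrast, 0 passed in limma, and 2 had an unadjusted p below 0.05. Ly6c2 was 6.37, 6.82 and 8.29 at day 0 and 4.09, 7.19 and 6.20 at day 4, so that its difference was 4.12 (SE 1.07, adjusted p = 0.0693). Emr1 was 7.20, 9.51 and 8.36 at day 0 and 9.63, 9.54 and 8.78 at day 4, with a difference of 2.27 (SE 0.68, adjusted p = 0.113). Mpo was 4.40, 2.77 and 11.20 at day 0 and 3.39, 4.13 and 4.34 at day 4, with day 0 library 3 far above the rest and a difference of 1.42 (SE 2.21, adjusted p = 0.82). With the block in ER-Hoxb8 cells alone, Ly6c2 (adjusted p = 0.0195) and Emr1 (adjusted p = 0.0443) passed, and with a block in both sources Ly6c2 (adjusted p = 0.0336). Emr1 passed without ER-Hoxb8 day 0 library 1, Cx3cr1 and Irf8 without day 0 library 2, and Ly6c2 without day 4 library 2 and with log2(CPM + 1). Of the erythroid genes tested, 14 of 21 were lower in this difference (median -4.73), against 1.43% over all genes. Their count was 8 without progenitor library 1, 8 without progenitor library 2 and 5 without progenitor library 3. Of the classical monocyte genes, 5 of 31 were higher, against 0.692% over all genes: Vcan (6.82), Ms4a4c (4.32), Ms4a6b (3.42), Ms4a6c (2.58) and Ms4a6d (4.38). That count was 3 without progenitor library 1, 3 without progenitor library 3 and 11 without ER-Hoxb8 day 0 library 3, 8 with the block in both sources and 9 with that in ER-Hoxb8 cells alone. In ER-Hoxb8 cells the Y-linked genes averaged -1.63, -0.52 and -1.93 log2 CPM at day 0 and -1.51, -0.76 and -0.47 at day 4. Every ER-Hoxb8 library was thus low, while progenitors 1 and monocytes 1 and 3 were high. With these genes as a covariate, chosen after seeing the data, 237 genes passed. Cells in culture and cells from marrow also differ in medium, in the Cas9 genotype and in the other cell types present, and the part of each was not tested.

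**Figure D5:**
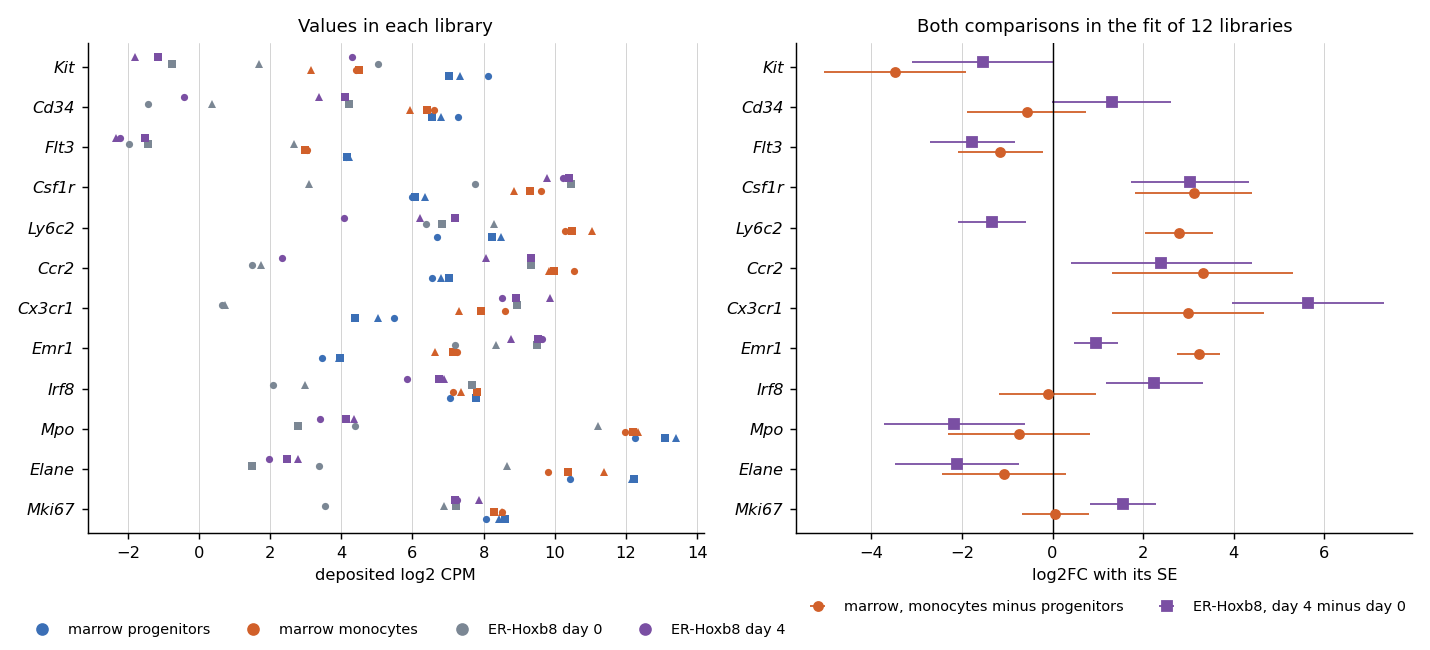
Left, log2 CPM of the 12 genes in each marrow and ER-Hoxb8 library (points); right, the log2FC of the step in marrow (monocytes minus progenitors) and in ER-Hoxb8 cells (day 4 minus day 0) with SE from the fit of 12 libraries. Ly6c2 has log2FC of 2.79 and -1.33, the pair with the smallest p.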

How the data were processed

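The authors assigned reads to transcripts of mouse build GRCm39 with kallisto 0.46.0, made counts per gene from the TPM and deposited log2 CPM after TMM normalization in edgeR; these deposited log2 values were used as they are. The lowest value, -4.34, was shared by 12 libraries and stands for no reads. Of 29957 rows, 1 had no name, and 29956 genes were kept. Genes that passed the filter (CPM above 1 in 3 or more of the 6) were tested with limma 3.58.1 in R 4.3.3, with a trend of variance on mean, two-sided, and Benjamini-Hochberg adjustment over all genes tested. Depth was estimated from the steps between values. A group with no library above a floor of 3 counts is given a fold bound, and such bounds cover counting error only.

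The libraries compared and the 33 gene lists with 616 genes were chosen with earlier results of these data known; 613 list genes were in the table. The genes named are members of the lists, or the 10 with the largest log2FC in each direction among DEGs whose groups did not overlap, or the 12 of the comparison with ER-Hoxb8 cells; which list members are described in full was chosen after their values were seen. Promoters are those of the 3 DEGs with the largest change on a list whose first listed promoter holds the motif. Nothing says that marrow libraries come from separate animals beyond the words biological replicates, so p-values measure the spread between these samples. For ER-Hoxb8 cells the paper describes 3 separately made lines, without naming the line of a library. Their replicate numbers paired by the data: deviations from the group mean correlated between day 0 and day 4 libraries of the same number at r of 0.226, 0.372 and 0.426 across genes, which are not independent replicates. The fit chosen beforehand has no block. The code was tested on simulated data. Alternatives were another filter or none, log2(CPM + 1), a fold limit of 1, no variance trend, library weights, quantile normalization, median centring, a replicate block, the spread of 12 libraries, leaving out each library, and, chosen after seeing the data, a Y-linked covariate, a block in ER-Hoxb8 cells alone and leaving out replicate 1 of both marrow groups.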

Additional observations from a re-analysis of the deposited data

Results flagged for a closer look

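The step from progenitors to monocytes in marrow differed from the step from day 0 to day 4 in ER-Hoxb8 cells in 257 of 12134 genes by a test of the difference itself, 84 higher and 173 lower in marrow. This difference between the groups is what marked it for a closer look. Of 21 erythroid genes tested, 14 were among the 173, against 1.43% lower over all genes. Of 31 classical monocyte genes, 5 were among the 84 (Vcan, Ms4a4c, Ms4a6b, Ms4a6c and Ms4a6d), against 0.692% over all genes. Both counts fell on leaving out progenitor libraries, as given above, and the classical monocyte count rose on leaving out an ER-Hoxb8 library. The median difference over all genes tested was -0.08. The count ran from 51 to 575 and the share that was higher from 20.4% to 50.9% (32.7% with all) on leaving out single libraries, and with a replicate block in ER-Hoxb8 cells alone the count was 518. The day 0 libraries of ER-Hoxb8 cells varied most between replicates. The origin of the difference was not tested.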

How the results depend on the processing

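Of the named genes that passed, 0 reversed their direction under any alternative run. The 1184 DEGs of monocytes against progenitors stayed within 1.5 times of that number with no filter (1010), a mean CPM above 5 (830), log2(CPM + 1) (797), no variance trend (1158), library weights (1237, from weights whose estimate stopped before it converged), quantile normalization (1166), median centring (1188) and the spread of 12 libraries (848). With a log2FC of at least 1 in place of 2 there were 2869, since more genes reach the lower limit. On leaving out single libraries the count ran from 866 to 1180, with 43.2% to 61.8% higher against 48.1%. With the Y-linked covariate and without replicate 1 of both groups, both chosen after seeing the data, it was 1286 and 824.

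The count of the difference of differences moved under more alternatives. Its 257 genes became 159 with a mean CPM above 5, where fewer genes were tested, 390 with log2(CPM + 1), 547 with library weights and 37 without replicate 1 of both marrow groups; the cause was not tested for the others. It ran from 51 to 575 on leaving out single libraries, 51 without progenitor library 3 and 575 without ER-Hoxb8 day 0 library 2. It was 234 with no filter, 302 with a log2FC of at least 1, 295 with no variance trend, 281 with median centring, and 237 with the Y-linked covariate. With quantile normalization it was 338, 145 higher and 193 lower (42.9% higher against 32.7%).

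Replicate numbers were tested as a pairing of the marrow groups. Under number 3, such a block joins libraries unlike in the Y-linked genes, which averaged -0.85 log2 CPM in progenitors 3 and 5.18 in monocytes 3. Deviations from the group mean correlated at r of 0.228, 0.188 and -0.0376 between libraries of the same number, across genes, which are not independent replicates. With a replicate block there were 1208 DEGs in place of 1184, 578 higher and 630 lower, and 4 immediate early DEGs in place of 2, with Fos among them. For the difference of differences the block in both sources gave 286, of which 196 were among the 257, 133 higher and 153 lower (46.5% higher against 32.7%). In ER-Hoxb8 cells alone, chosen after seeing the data, it gave 518, 43.1% higher, with all 257 among them, and the cause was not tested.

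Of the 196 named genes that passed, 103 lost their call under at least 1 alternative: 66 with the spread of 12 libraries, 37 with no filter and 32 without progenitor library 1. A gene that an alternative did not test is not counted as lost there. Of genes under the fold limit, Ncl passed in 4 of 17 alternatives, Cdk6 in 3, Tlr4 in 2 and Nr4a1 in 1.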

Other observations

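Other motifs were counted in the RefSeq promoters of build GRCm38.p6, on both strands, as a description of letters. CCAAT, the core of NF-Y sites, was in 37.4% of all 32851 promoters, and in 18 of 28 (64.3%) of S phase and 21 of 28 (75%) of G2/M genes. Other lists ran from 21.4% (dendritic cell, 3 of 14) to 85.7% (MHC class II, 6 of 7). TTTGAA, the core of the CHR element of late cell cycle genes, was in 17.9% of all and in 21 of 28 (75%) of G2/M genes, against 0% to 40% in other lists. GAGGAA was in 12 of 25 (48%) of lysosome genes, and TTGCGCAA, a C/EBP sequence, in 60 promoters (0.183%). No part of these motifs in the differences was tested.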
